A study of Mus musculus with 8 samples.

Results

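The genes of 9 enzymes that make or break down organic osmolytes were followed in IMCD cells, a mouse line from the collecting duct of the renal inner medulla, with and without added salt. They were taken by symbol from a table of raw counts for 15288 genes. The enzymes were Akr1b3 and Sord for sorbitol, Pnpla6, Gdpd5 and Gde1 for glycerophosphocholine, Isyna1, Impa1 and Impa2 for inositol, and Aldh7a1 for betaine. All 9 were found and all 9 passed the filter on low counts. By the roles assigned here, 6 of them make an osmolyte (Akr1b3, Pnpla6, Isyna1, Impa1, Impa2, Aldh7a1) and 3 degrade an osmolyte (Sord, Gdpd5, Gde1). The control group (replicates 1 to 4) was kept for 12 h in serum-free DMEM, and the NaCl group (replicates 5 to 8) for the same 12 h in that medium with 100 mmol NaCl. The labels give this amount without a volume. No label says that the 4 libraries of a group came from separate cultures, so the p-values measure the spread between these libraries, which may be technical. All 8 libraries are of the same line and of a single time point.

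Cells of the renal inner medulla live in a fluid that becomes strongly hypertonic when urine is concentrated. They are known to balance it with small organic solutes that leave proteins undisturbed, among them sorbitol, glycerophosphocholine, inositol and betaine. Aldose reductase reduces glucose to sorbitol, and sorbitol dehydrogenase oxidises it to fructose. A phospholipase releases glycerophosphocholine from phosphatidylcholine, and phosphodiesterases split it. Inositol is made from glucose phosphate in a synthase step followed by a phosphatase step, and betaine is made from choline by a pair of oxidations. The transcription factor NFAT5, which binds the tonicity enhancer TonE, is known to drive several of these genes.

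Total counts ranged from 35.29 to 47.57 M per library. The highest was control replicate 1 and the lowest NaCl replicate 5. In both groups libraries with neighbouring numbers were most alike (chi-square per gene 5.24 to 10.09, where counting error alone gives about 1), and the first and last numbers least alike (20.85 in control and 22.97 in NaCl libraries). What the numbers stand for is not given in the labels. With the position within the group added to the model, Akr1b3, Isyna1, Pnpla6 and Gdpd5 were called and the other 5 members were not, as without it. The summed level of 9 measured markers of collecting duct principal cells, of 11 listed, was 14.6 to 16.5 CPM (the count relative to the TMM-scaled library total) in control and 12.5 to 13.2 CPM in NaCl libraries. Their defining water channel gene Aqp2 had a mean of 0.024 CPM in control and 0.305 CPM in NaCl libraries, so this marker was near 0. Of the other principal cell markers, Gata3 had means of 8.10 and 5.97, Scnn1g 3.77 and 2.10, Scnn1a 2.12 and 2.49, Hsd11b2 0.683 and 0.983, Aqp4 0.393 and 0.233, Aqp3 0.320 and 0.147, Scnn1b 0.246 and 0.0724, and Avpr2 0.108 and 0.646 CPM in control and NaCl libraries. The 6 general epithelial markers summed to 905 to 1196 CPM in control and 1690 to 1940 CPM in NaCl libraries. Cdh16 made up this difference, with means of 639.5 and 1380 CPM, while those of Epcam were 27.3 and 28.2, of Krt8 109 and 96.5, of Krt18 217 and 205, of Krt19 70.01 and 68.4, and of Cdh1 0.195 and 0.535 CPM. Summed levels of the 5 fibroblast markers were 2747 to 3167 and 2446 to 2816 CPM, mostly from Col1a1, with means of 2492 and 2148 CPM. Col3a1 had means of 381 and 459, Pdgfrb 37.5 and 61.1, Dcn 15.8 and 14.9, and Pdgfra 2.38 and 1.503 CPM. Summed levels of the 3 measured proximal tubule markers, of 5 listed, were 162 to 205 and 155 to 177 CPM. Lrp2 made up nearly all of this, with means of 185 and 162 CPM. Cubn had means of 2.16 and 2.45 and Slc5a2 0.131 and 0.141 CPM. The 2 measured immune markers summed to 5.95 to 7.19 and 14.9 to 15.3 CPM. Of the immune pair, Ptprc had means of 4.06 and 13.5 CPM and Cd68 went the other way, with 2.41 and 1.69 CPM. Summed levels of the 2 measured endothelial markers were 0.356 to 0.870 and 0.357 to 0.804 CPM, and the measured intercalated cell marker was at 1.45 to 2.22 and 0.194 to 0.449 CPM. The part of these markers in the results on the 9 genes was not tested.

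The genes are annotated in GENCODE M21 on GRCm38, the assembly also called mm10. Akr1b3 lies at chr6:34302434-34317478 on the minus strand, Sord at chr2:122234749-122265340 on the plus strand, and Pnpla6 at chr8:3515384-3544267 on the plus strand. Gdpd5 is at chr7:99381414-99461877 on the plus strand and Gde1 at chr7:118688545-118705778 on the minus strand. Isyna1 is at chr8:70594373-70597290 on the plus strand and Impa1 at chr3:10311956-10331439 on the minus strand. In the RefSeq promoter table (GRCm38.p6), which holds the 250 bases before and 50 after a gene's start, 4 of the 9 genes were matched, with 6 windows: 1 each for Sord, Gde1 and Isyna1 and 3 for Pnpla6. Akr1b3, Gdpd5, Impa1, Impa2 and Aldh7a1 were not matched. The bases of these windows that lie before the annotated gene are printed here for a pair of genes that rose with NaCl (Isyna1 and Pnpla6) and a pair that did not pass the test (Sord and Gde1), 5′ to 3′ on the strand of the gene. Capitals would mark TGGAAA, the core of the tonicity enhancer, on either strand, and none of the 4 stretches holds it.
Isyna1, chr8:70594231-70594372: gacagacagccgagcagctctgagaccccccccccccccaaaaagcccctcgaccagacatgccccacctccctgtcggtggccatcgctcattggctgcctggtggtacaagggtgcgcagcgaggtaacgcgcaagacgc
Pnpla6, chr8:3515161-3515383: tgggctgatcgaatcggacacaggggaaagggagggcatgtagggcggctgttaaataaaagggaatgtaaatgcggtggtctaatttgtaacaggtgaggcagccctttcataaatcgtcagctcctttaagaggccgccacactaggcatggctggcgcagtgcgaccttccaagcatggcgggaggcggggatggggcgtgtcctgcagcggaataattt
Sord, chr2:122234589-122234748: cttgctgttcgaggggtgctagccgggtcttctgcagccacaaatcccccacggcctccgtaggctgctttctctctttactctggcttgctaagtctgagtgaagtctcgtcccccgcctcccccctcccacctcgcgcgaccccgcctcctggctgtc
Gde1, chr7:118705779-118705988: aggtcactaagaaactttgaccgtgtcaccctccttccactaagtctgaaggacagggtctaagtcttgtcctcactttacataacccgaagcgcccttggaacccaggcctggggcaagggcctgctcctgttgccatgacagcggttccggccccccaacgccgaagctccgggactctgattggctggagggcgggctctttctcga

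Over the whole 300-base windows, TGGAAA on either strand was found in 2 of the 3 windows of Pnpla6 and in none of the windows of Isyna1, Sord and Gde1. It occurs in 21.4% of the 32851 promoter windows of this length. The longer TonE consensus, which contains TGGAAA, was found in a single window, that of a Pnpla6 start inside the annotated gene, on the minus strand at chr8:3515468-3515478. It occurs in 4.96% of all windows. The site is shown with its flanks because it was the only match to this consensus in the 6 windows, with the bases of the consensus in capitals.
Pnpla6, chr8:3515460-3515486: tgaatggtACGAGTTTCCAtcgaccga

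A match is a description of these letters only. A part of either motif in the changes with NaCl was not tested.

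Of the 9 genes, 3 rose and 1 fell with NaCl, while 5 did not pass the test. The 3 that rose all make an osmolyte: Akr1b3 was 6.54-fold higher, Isyna1 2.66-fold higher and Pnpla6 1.76-fold higher. Gdpd5, which degrades glycerophosphocholine, fell to 0.507 of its control level. Sord, Gde1, Impa1, Impa2 and Aldh7a1 were not called. Calls were made with the quasi-likelihood test of edgeR, over all 14024 genes tested, where the Benjamini-Hochberg adjusted p fell below 0.05. Of those genes 34.1% were called, 16.9% higher and 17.2% lower. The 4 of 9 called members (44.4%) are not far from that background. A call with at least a 1.5-fold rise was made for 4.17% of all genes and for 3 of the 9 members. A call with a fall of that size was made for 2.85% of all genes and for 1 member. The median log2 fold change was -0.014 over the 9 members and 0.00287 over all genes tested. In these bulk samples, fewer cells that express a gene and less of its RNA per cell cannot be told apart.

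**Figure D1:**
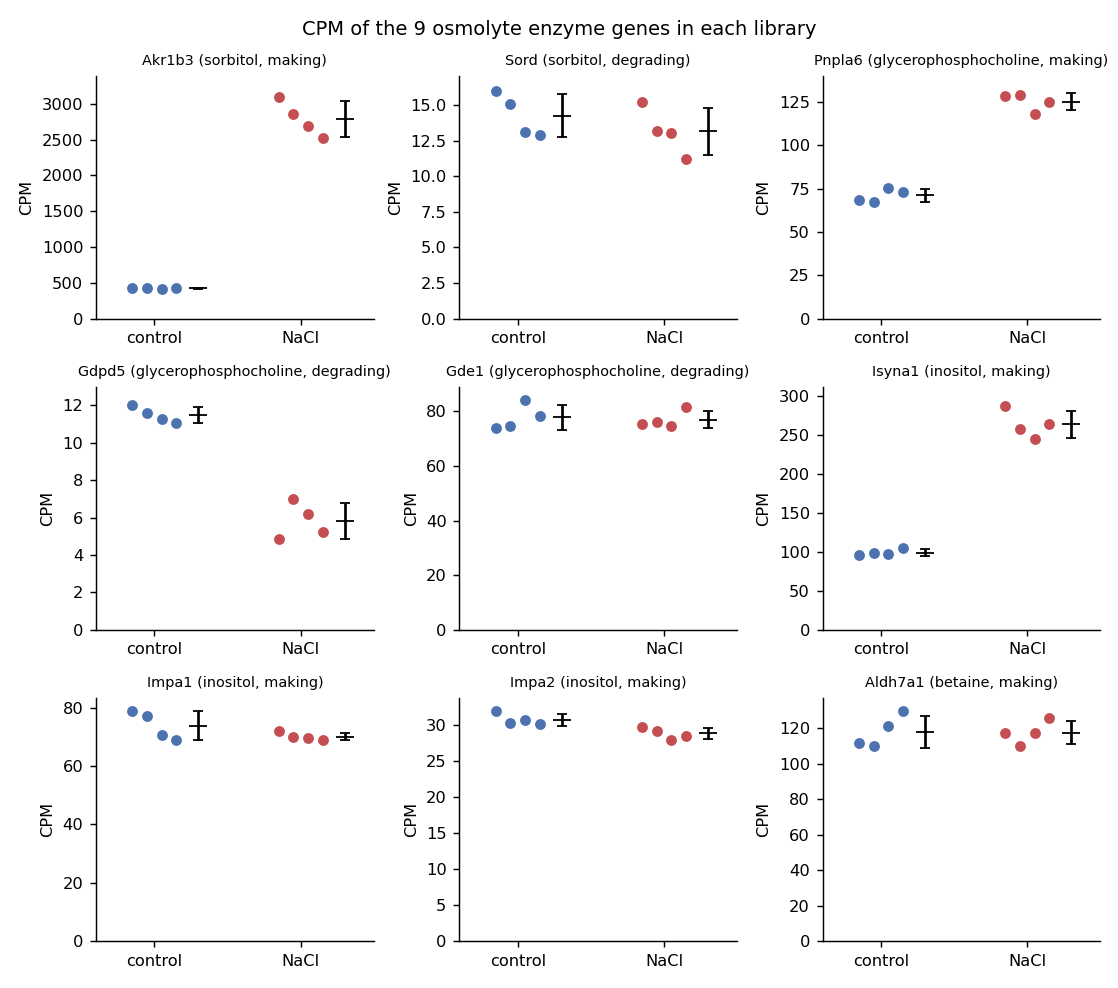
CPM (vertical axis, from 0) of each of the 9 genes in the 4 control and 4 NaCl libraries, with replicates in order of their number and the mean ± SD as a black bar. The groups are clearly apart for Akr1b3, Isyna1, Pnpla6 and Gdpd5, and narrowly apart for Impa2.

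For sorbitol, the making enzyme rose and the degrading enzyme did not pass the test. Akr1b3 (ENSMUSG00000001642), the aldose reductase that forms sorbitol, was at 433, 424, 420 and 430 CPM in the control libraries, given in the order of their replicate number here and in what follows. The NaCl libraries had 3097, 2858, 2692 and 2517 CPM. The lowest NaCl library was thus far above the highest control, and the NaCl libraries were also more spread, with a coefficient of variation of 8.85% against 1.29%. The log2 fold change was 2.71 (SE 0.054, 95% interval 2.59 to 2.82; edgeR adjusted p = 2.25e-13), the 32nd highest of 14024 genes. Of the longest Akr1b3 transcript, 9.83% is shared at 98% identity with other annotated genes, Gm38056, Gm6736, Gm12138 and Gm6644.

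Sord (ENSMUSG00000027227), the sorbitol dehydrogenase that turns sorbitol into fructose, was at 15.99, 15.03, 13.1 and 12.9 CPM in control libraries. With NaCl it was at 15.2, 13.2, 13.0 and 11.2 CPM. The groups overlapped over most of their range. The log2 fold change was -0.12 (SE 0.098, 95% interval -0.33 to 0.09; edgeR adjusted p = 0.372), so the interval runs from a change of -20.4% to one of 6.16%. Sord shares 45.5% of its longest transcript at 98% identity with the pseudogene Gm6652, so its level is uncertain. The ratio of Akr1b3 to Sord counts was 27.1, 28.2, 32.1 and 33.3 in control and 204, 217, 207 and 225 in NaCl libraries. Its mean rose from 30.2 ± 3.002 to 213 ± 9.59 (SD, n = 4 each), a factor of 7.07, and the numerator supplied nearly all of this.

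For glycerophosphocholine, the making enzyme rose and 1 of the 2 enzymes grouped here as degrading fell. Pnpla6 (ENSMUSG00000004565), the neuropathy target esterase that removes both fatty acids from phosphatidylcholine, was at 68.6, 67.4, 75.3 and 73.2 CPM in control libraries. The NaCl libraries held 129, 129, 118 and 125 CPM. No NaCl library came near the controls. The log2 fold change was 0.82 (SE 0.044, 95% interval 0.72 to 0.91; edgeR adjusted p = 4.95e-10), the 488th highest of all genes tested.

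Gdpd5 (ENSMUSG00000035314), a membrane phosphodiesterase that splits glycerophosphocholine, was at 12.0, 11.6, 11.3 and 11.1 CPM in control libraries. With NaCl it was at 4.85, 6.98, 6.18 and 5.22 CPM, from 174, 295, 255 and 219 counts. All NaCl libraries lay below all controls, although the spread among them was wide, with a coefficient of variation of 16.5% against 3.62%. The log2 fold change was -0.98 (SE 0.11, 95% interval -1.21 to -0.75; edgeR adjusted p = 3.14e-06), the 202nd lowest of 14024 genes. Neither Pnpla6 nor Gdpd5 shares transcript sequence at 98% identity with another annotated gene.

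Gde1 (ENSMUSG00000033917) encodes a glycerophosphodiesterase known to act mainly on glycerophosphoinositol and related lipids. It was at 73.8, 74.8, 84.1 and 78.3 CPM in control and at 75.4, 76.0, 74.8 and 81.7 CPM in NaCl libraries. The groups overlapped fully, and the log2 fold change was -0.014 (SE 0.047, adjusted p = 0.85 in edgeR), with an interval from -7.53% to 6.06%. The annotated gene Gm45236 covers 13.5% of its exon bases on the opposite strand, and the strand used in counting is not given in the sources used here. The ratio of Gdpd5 to Gde1 counts was 0.148 ± 0.0131 without and 0.0757 ± 0.0139 with NaCl (SD, n = 4 each). The ratio of Pnpla6 to Gdpd5 counts was 5.71, 5.80, 6.69 and 6.62 in control and 26.5, 18.5, 19.1 and 24.0 in NaCl libraries, a factor of 3.55 between the means. In this pair both genes contributed.

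**Figure D2:**
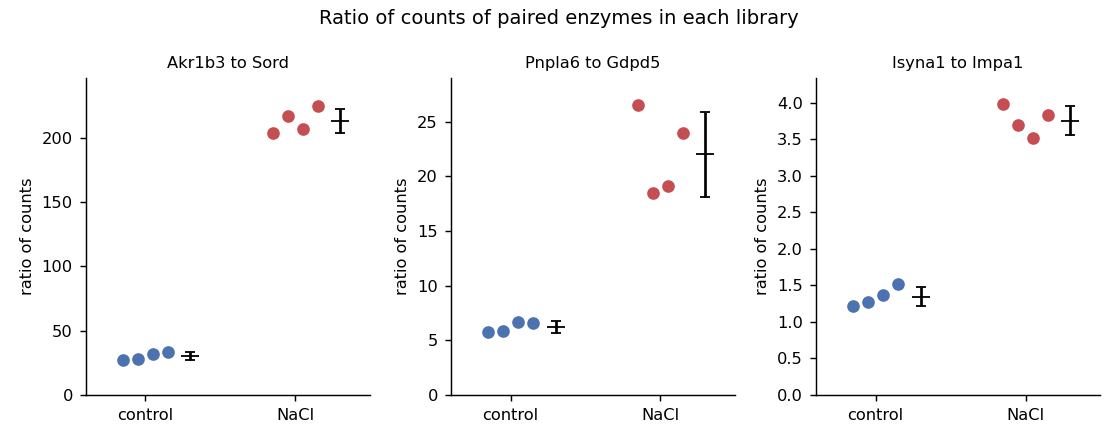
Ratio of raw counts (vertical axis, from 0) of Akr1b3 to Sord, Pnpla6 to Gdpd5 and Isyna1 to Impa1 in each control and NaCl library, with the mean ± SD as a black bar. All NaCl libraries lie above all controls for each ratio, from 204 to 225 against 27.1 to 33.3 for Akr1b3 to Sord.

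For inositol, the gene of the first step rose, and the genes of the second did not pass the test. Isyna1 (ENSMUSG00000019139), the inositol phosphate synthase that commits glucose phosphate to inositol, was at 95.9, 98.5, 97.2 and 105 CPM in control libraries. The NaCl libraries held 287, 258, 245 and 264 CPM. The groups were far apart. The log2 fold change was 1.41 (SE 0.046, 95% interval 1.31 to 1.51; edgeR adjusted p = 2.11e-12), the 163rd highest of all genes tested.

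Impa1 (ENSMUSG00000027531) and Impa2 (ENSMUSG00000024525, chromosome 18) encode the inositol monophosphatases, which release free inositol and also recycle it from inositol phosphate signalling. Impa1 was at 78.9, 77.3, 70.7 and 69.0 CPM in control and at 72.04, 69.95, 69.6 and 69.0 CPM in NaCl libraries. The groups overlapped, and the log2 fold change was -0.077 (SE 0.046; edgeR adjusted p = 0.217). Impa2 was at 31.9, 30.2, 30.6 and 30.1 CPM in control and at 29.7, 29.2, 27.9 and 28.4 CPM in NaCl libraries. All 4 NaCl libraries lay just below all 4 controls, but the log2 fold change, -0.093 with an SE of 0.052, did not pass (edgeR adjusted p = 0.18). With Impa2, 5 of the 9 members had no overlap between groups, against 33.4% of all genes tested. The intervals were -11.4% to 1.46% for Impa1 and -13.1% to 1.10% for Impa2, so a rise like that of Isyna1 lies outside them. The ratio of Impa1 to Impa2 counts was 2.41 ± 0.129 without and 2.44 ± 0.0402 with NaCl (SD, n = 4 each), a difference smaller than the spread. The ratio of Isyna1 to Impa1 counts went from 1.35 ± 0.134 to 3.76 ± 0.200. Impa2 has 23.6% of its exon bases covered on the opposite strand by B430212C06Rik.

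For betaine, the member did not pass the test, while Chdh, which acts before it in the pathway, rose. Aldh7a1 (ENSMUSG00000053644, chromosome 18), which oxidises betaine aldehyde to betaine and also serves lysine breakdown, was at 112, 110, 121 and 130 CPM in control libraries. With NaCl it was at 118, 110, 117 and 126 CPM. The groups overlapped fully, and the log2 fold change was -0.0070 (SE 0.053, adjusted p = 0.935 in edgeR), with an interval from -7.92% to 7.55%. With the library number from 1 to 8 entered as a linear drift across both groups, Aldh7a1 alone of the 5 uncalled members was called, with a log2 fold change of -0.24 (edgeR adjusted p = 0.0138). The number and the group are confounded in this design, since all controls come first. With the number centred within each group instead, Aldh7a1 was at -0.0061 (edgeR adjusted p = 0.91). The opposite-strand gene Phax covers 5.79% of the exon bases of Aldh7a1.

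**Figure D3:**
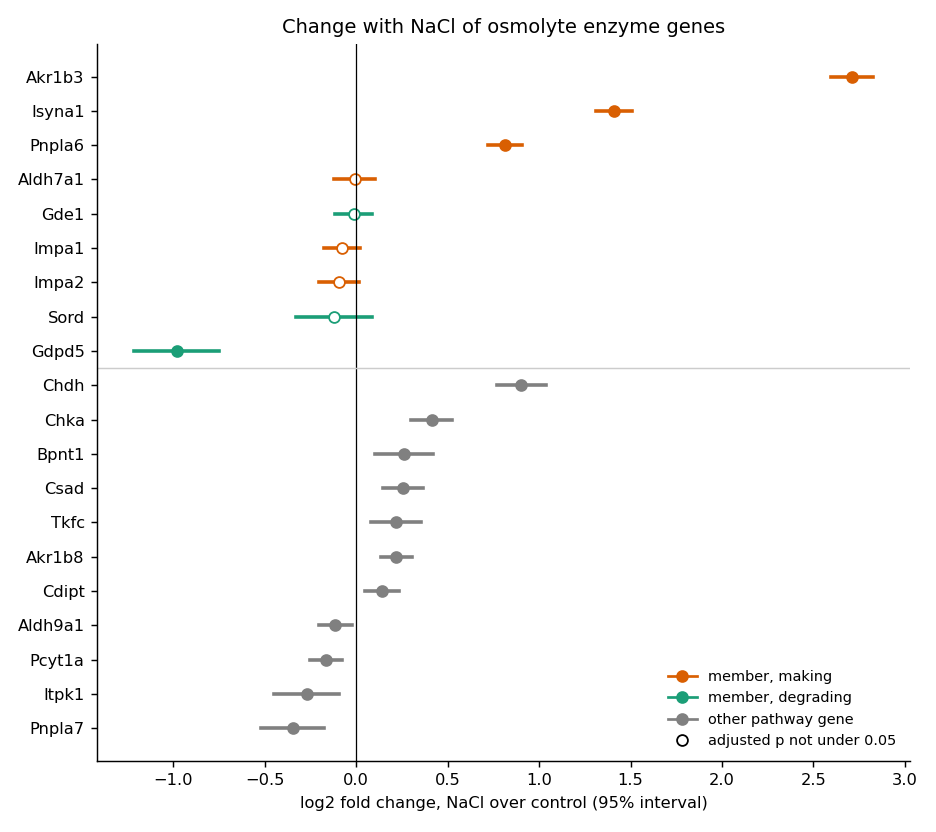
Log2 fold change (horizontal axis, NaCl over control) with its 95% interval for the 9 members, coloured by role, above 11 other genes of the osmolyte pathways in grey. Open circles mark genes not called. Akr1b3, Isyna1 and Pnpla6 stand to the right and Gdpd5 to the left, while the intervals of the other 5 members include 0.

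The roles were then set side by side. Of the 6 making enzymes 3 were called higher and none lower, and of the 3 degrading enzymes 1 was called lower and none higher. Over all genes tested 16.9% were called higher and 17.2% lower, and the degrading count rests on a single gene, Gdpd5. The median log2 fold change was 0.404 over the making and -0.12 over the degrading enzymes. No making enzyme lay near 0.404, since 3 were at -0.093 to -0.0070 and 3 at 0.82 to 2.71. The mean log2 CPM of the making enzymes less that of the degrading enzymes was 1.99, 2.01, 2.06 and 2.13 in control libraries. With NaCl it was 3.300, 3.119, 3.145 and 3.291. The groups were apart, and the means differed by 1.17 on this scale, where the making side rose by 0.793 and the degrading side fell by 0.375. No test was applied to this difference, since the genes were chosen with earlier results known. Single genes carried much of it: the difference was 0.786 without Akr1b3 and 0.86 without Gdpd5, choices made after seeing the data. The summed CPM of the making enzymes went from 820 ± 12.0 to 3396 ± 261, and without Akr1b3 from 393 ± 10.2 to 606 ± 24.6 (SD, n = 4 each). The summed CPM of the degrading enzymes went from 103.5 ± 3.33 to 95.9 ± 1.69. Akr1b3 took 46.2 ± 0.692% of the summed CPM of the 9 genes in control and 79.85 ± 1.296% in NaCl libraries.

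Levels were compared between the genes per length, as CPM per kb of merged exons. In control libraries the order was Akr1b3 (50.9 ± 0.658), Gde1 (45.95 ± 2.76), Isyna1 (40.7 ± 1.64), Aldh7a1 (22.8 ± 1.73), Impa1 (13.6 ± 0.897), Pnpla6 (7.34 ± 0.385), Sord (6.06 ± 0.641), Impa2 (5.72 ± 0.154) and Gdpd5 (1.71 ± 0.0617; all CPM per kb, SD, n = 4). The libraries of neighbours in this order did not overlap, except those of Sord and Impa2. With the longest transcript as the length, Isyna1 (51.7) and Gde1 (49.1) changed places and overlapped, and so did Impa2 and Sord. Gde1, grouped here as degrading, was therefore among the highest per length and Gdpd5 the lowest of the 9. In NaCl libraries Akr1b3 reached 333 ± 29.5 and Isyna1 108 ± 7.27 CPM per kb, followed by Gde1 at 45.5 ± 1.87. Pnpla6, at 12.9 ± 0.525, was beside Impa1, at 12.9 ± 0.241, and the libraries of this pair overlapped, as did those of Sord and Impa2. Gdpd5 was again lowest, at 0.862 ± 0.142. Among 15282 genes with a length, Akr1b3 moved from rank 904 to rank 84 by CPM per kb, Isyna1 from 1208 to 350 and Pnpla6 from 6434 to 4272. Gdpd5 moved from rank 10416 to 11469.

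**Figure D4:**
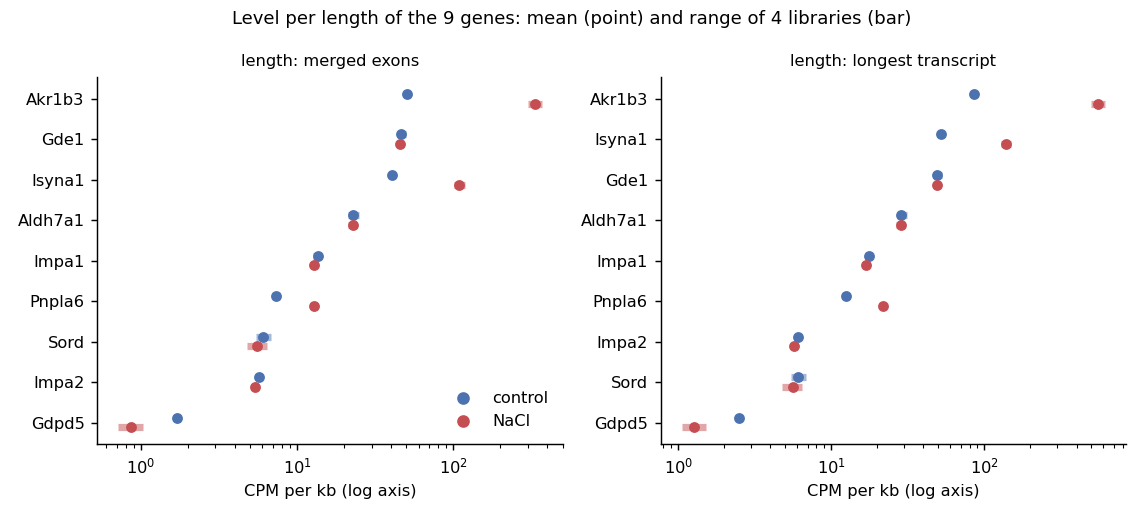
CPM per kb (horizontal log axis) of the 9 genes in control and NaCl libraries, with the mean as a point and the range of the 4 libraries as a bar, using merged exons (left) or the longest transcript (right) as the length. Akr1b3 is highest and Gdpd5 lowest in either group and with either length.

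Further genes of the same pathways were listed, 45 in all, of which 37 had counts here and 36 were tested. Of the 36, 8 were called higher and 5 lower in edgeR's quasi-likelihood test, which at 36.1% is close to the background of 34.1%, and their median log2 fold change was 0.024. The number called in all was 8 without control replicate 2, and 6 with the library number as a linear drift. The 5 called lower were 2 without NaCl replicate 6, and 3 without control replicate 2 or without NaCl replicate 5. Bhmt, Bhmt2, Dmgdh, Miox, Gdpd2, Gdpd4, Gadl1 and Fmo1 were not found by symbol among the 15288 genes with raw counts, and Gnmt was below the filter. Of enzymes that break down inositol or betaine, Sardh, which acts late in the betaine route, was the one tested and did not pass (log2 fold change -0.094, SE 0.060; edgeR adjusted p = 0.241).

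Of 3 tested genes in the betaine list, 1 rose, 1 fell and 1 did not pass. The 66.7% called here rests on 3 genes, against 34.1% called over all genes tested. Chdh, the mitochondrial choline dehydrogenase that makes betaine aldehyde from choline, was at 100, 104, 109 and 125 CPM in control libraries. With NaCl it was at 215, 200, 196 and 208 CPM. All NaCl libraries lay above all controls, and the log2 fold change was 0.90 (SE 0.061, 95% interval 0.77 to 1.04; edgeR adjusted p = 1.94e-07). Cacna1d covers 9.47% of the exon bases of Chdh on the opposite strand. Aldh9a1, an aldehyde dehydrogenase that acts on related amino aldehydes, fell from 60.9 ± 1.995 to 56.2 ± 1.77 CPM (SD, n = 4 each; log2 fold change -0.11, edgeR adjusted p = 0.0478). That call was made in 11 of 19 alternatives, over which the log2 fold change was -0.16 to -0.0955.

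Of 15 tested genes for glycerophosphocholine and choline, 2 rose, 3 fell and 10 did not pass, with a median log2 fold change of -0.08. The share called, 33.3%, was close to the 34.1% over all genes tested. Chka, the choline kinase that starts phosphatidylcholine synthesis, rose from 76.7 ± 4.65 to 102 ± 7.03 CPM (SD, n = 4 each; log2 fold change 0.41, SE 0.053, edgeR adjusted p = 1.85e-05). Pcyt1a, which encodes the next and regulated step of that route, fell from 78.9 ± 3.72 to 70.5 ± 1.89 CPM (log2 fold change -0.16, edgeR adjusted p = 0.00631). Pnpla7, the close relative of Pnpla6, fell from 13.9 ± 1.09 to 10.9 ± 0.472 CPM (log2 fold change -0.35, SE 0.081, edgeR adjusted p = 0.00322). The groups did not overlap for Chka, Pcyt1a and Pnpla7 alike. Pnpla6 rose and Pnpla7 fell. With the library number as a linear drift, neither Pnpla7 nor Pcyt1a was called. Pnpla7 was then at -0.295 (edgeR adjusted p = 0.219), close to the change reported, and Pcyt1a at -0.025 (edgeR adjusted p = 0.861). The other glycerophosphodiester phosphodiesterase genes tested, Gdpd1, Gdpd3 and Gpcpd1, were not called, with log2 fold changes of -0.25, 0.28 and -0.14 (edgeR adjusted p = 0.0512, 0.492 and 0.196).

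Of 8 tested genes around the polyol pathway, 2 rose and none fell, with a median log2 fold change of 0.20. That is 25.0% called, against 34.1% over all genes tested. Akr1b8, an aldo-keto reductase related to Akr1b3, rose from 67.7 ± 2.22 to 78.7 ± 2.34 CPM (SD, n = 4 each; log2 fold change 0.22, SE 0.040, edgeR adjusted p = 4.62e-04). Tkfc, a kinase of fructose breakdown, rose from 18.9 ± 1.21 to 22.0 ± 0.494 CPM (log2 fold change 0.22, SE 0.064, edgeR adjusted p = 0.0139). Tkfc was not called without control replicate 2, though its log2 fold change was then 0.193 (edgeR adjusted p = 0.0506). Neither was called with the linear drift (log2 fold change 0.10 for Akr1b8 and 0.13 for Tkfc). Cyb561a3 covers 12.9% of the exon bases of Tkfc on the opposite strand. The related Akr1a1 and Akr1b10 had log2 fold changes of -0.014 and 0.048, and Khk, the fructokinase that takes up the product of Sord, 0.18 (edgeR adjusted p = 0.806, 0.488 and 0.378).

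Of 7 tested genes for inositol phosphates, 2 rose and 1 fell, with a median log2 fold change of 0.02. In this list 42.9% were called, not far from the 34.1% over all genes tested. Bpnt1, a phosphatase related to the Impa enzymes, rose from 52.5 ± 2.29 to 63.0 ± 8.02 CPM (SD, n = 4 each; log2 fold change 0.26, edgeR adjusted p = 0.0147). NaCl replicate 5 was at 74.9 CPM and the other NaCl libraries at 57.7 to 60.8 CPM, and without that library the log2 fold change was 0.17 and the gene was still called. With the linear drift it was 0.55 (edgeR adjusted p = 1.39e-04). Itpk1, an inositol phosphate kinase, fell from 26.9 ± 0.744 to 22.2 ± 3.21 CPM (log2 fold change -0.27, edgeR adjusted p = 0.0191). Its groups narrowly overlapped, since NaCl replicate 8 was at 26.3 CPM and control replicate 1 at 25.9 CPM. The call was lost when control replicate 2 or NaCl replicate 5 or 6 was left out, with log2 fold changes of -0.26, -0.19 and -0.26 (edgeR adjusted p = 0.0529, 0.0512 and 0.0545). The log2 fold change of Itpk1 was -0.36 without NaCl replicate 8 and -0.60 with the linear drift (edgeR adjusted p = 0.00117 and 8.62e-04). Cdipt, which joins inositol to a lipid to make phosphatidylinositol, rose from 85.1 ± 4.49 to 93.8 ± 3.52 CPM (log2 fold change 0.14, edgeR adjusted p = 0.02). The call of Cdipt was lost when any of control replicates 1 and 2 and NaCl replicates 7 and 8 was left out. Its log2 fold changes were then 0.104, 0.135, 0.128 and 0.126. The call was also lost with the linear drift, where the log2 fold change was -0.0058 (edgeR adjusted p = 0.97). Among 3 tested taurine genes, Csad, the decarboxylase of taurine synthesis, rose from 35.2 ± 1.45 to 42.0 ± 1.92 CPM (log2 fold change 0.25, SE 0.052, edgeR adjusted p = 0.00107). Cdo1 and Ado did not pass, so 33.3% of these 3 were called, near the 34.1% over all genes tested.

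The genes whose log2 CPM ran most like those of Akr1b3 and Gdpd5 over the 8 libraries were sought among the 10120 genes whose log2 CPM averaged 3 or more. For Akr1b3 they were Gm567, Plekha1 and the water channel gene Aqp1, with Pearson's r of 0.9997, 0.9987 and 0.9981. Gm567 went from 3.23 ± 0.0577 to 49.05 ± 6.72 CPM, Plekha1 from 73.0 ± 1.74 to 147 ± 4.91 CPM, and Aqp1 from 118 ± 5.26 to 858 ± 15.95 CPM (SD, n = 4 each). For Gdpd5, Ak1 and Pwwp3b had r of 0.9932 and 0.9925. Ak1 went from 83.7 ± 2.30 to 67.6 ± 2.88 CPM (log2 fold change -0.31), a smaller fall than that of Gdpd5. Pwwp3b went from 13.7 ± 0.702 to 7.65 ± 1.07 CPM (log2 fold change -0.84). In all, 71 genes reached an r of 0.99 with Akr1b3 and 4 with Gdpd5. These values describe 8 libraries in 2 groups, so any gene that differs cleanly between the groups scores high.

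**Figure D5:**
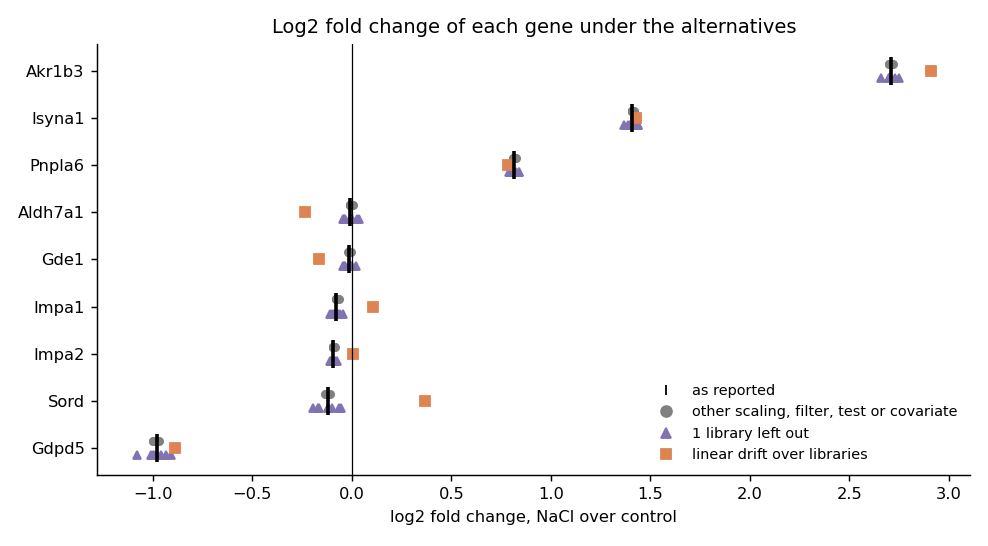
Log2 fold change (horizontal axis) of each of the 9 genes as reported (black bar), with 1 library left out (triangles), with the library number as a linear drift (squares) and under the other alternatives (circles). Akr1b3, Isyna1, Pnpla6 and Gdpd5 keep their side of 0 throughout, and the square of Sord lies at 0.37, across 0 from its reported value of -0.12.

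The size of the 4 called members changed little with the processing. Over 19 alternatives the log2 fold change was 2.66 to 2.91 for Akr1b3, 1.37 to 1.44 for Isyna1, 0.78 to 0.84 for Pnpla6 and -1.08 to -0.89 for Gdpd5, and each was called in all 19. Sord, Gde1, Impa1 and Impa2 were called in none of the 19.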

How the data were processed

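RNA of 8 bulk libraries was measured, 4 per group. The authors deposited raw counts per Ensembl gene and, for the same genes, a normalized signal, which is each library's counts over 1 size factor. Per the submitters' processing notes, Trim Galore 0.6.7, STAR, DESeq2 1.34.0 and the build mm10 were used, with no roles given. The counting program, annotation and strandedness are not given in the sources used here. The raw counts went into edgeR 4.0.16 (R 4.3.3), where filterByExpr (minimum count 10) left 14024 genes, followed by TMM scaling and a robust quasi-likelihood F test of group. SE and 95% intervals come from this fit, with 2 as the prior count for log2 CPM. Libraries held 35.29 to 47.57 M counts, and the lowest member count was 174 (Gdpd5). Replicate pairs differed by at least 5.24 times counting noise (chi-square per gene), so none was a repeated library. Shared sequence was measured with blastn (at least 75 bases at 98% identity) on GENCODE M21 transcripts.

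The members, lists and tests were chosen with earlier results of these data known. Named were the 9 members, up to 3 called genes of each further list, by size of change, and the 3 genes most like the member with the highest and the lowest fold change, of which 1 is not reported here. Values are also given for some uncalled relatives of members, for context, chosen after their values were seen. Alternatives were other scalings and filters, DESeq2 1.42.0, limma 3.58.1 (voom, and log2 of the authors' normalized values plus 1 or 0.5), library number as a covariate, and leaving out each library.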

Additional observations from a re-analysis of the deposited data

Results flagged for a closer look

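In 56 groups of 4 values, a search for a library far from the rest of its own group found 1, where about 2.8 arise by chance. Bpnt1 had 55.88 CPM in control replicate 1, and the other controls had 50.9 to 51.6 CPM. No value of the 9 members, nor any of their ratios, stood apart in this way.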

How the results depend on the processing

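No paired analysis was possible because the labels number the libraries 1 to 8 and the groups share no number. Position within the group was tried as the number centred within groups, which raised the genes called from 4789 to 6030 and changed no call of a member. The 4 called members kept their call and direction in all 19 alternatives. With the library number as a linear drift the log2 fold changes of uncalled members were 0.37 for Sord, 0.107 for Impa1 and 0.00701 for Impa2, against the negative values reported, that of Cdipt was -0.00581, members called lower numbered 2, and the further pathway genes called were 6, of which 4 higher and 2 lower. The cause was not tested. Leaving out each library gave -0.0456 to 0.0233 for Gde1, positive without control replicate 3, and -0.0424 to 0.0379 for Aldh7a1, with 0.00266, 0.0379 and 0.0242 when control replicate 3, control replicate 4 and NaCl replicate 6 were left out. Aldh7a1 was at 0.00354 with library totals alone. Further pathway genes called lower were 3 with library totals alone and 8 with the number centred within groups. Leaving out each library gave 8 to 14 further genes called, 5 to 9 higher and 2 to 6 lower. The making minus degrading difference was 1.526 without Gde1 and Impa2, 0.786 without Akr1b3 and 0.86 without Gdpd5, each over fewer genes, and 1.139 to 1.2 with each library left out. Over all genes tested 3382 to 6030 were called over the alternatives. At this depth Cdo1, with 78 to 114 counts a library, had an SE of 0.19 on the log2 scale, against 0.054 for Akr1b3.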
